A study of Mus musculus with 27 samples.

Results

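The expression of 10 autophagy and lysosome genes was followed across 27 mouse hearts, all of the inbred strain C57BL/6J. The genes are Gabarap, Gabarapl1, Gabarapl2, Map1lc3a, Map1lc3b, Sqstm1, Bnip3, Becn1, Gaa and Lamp2, taken by symbol from a table of 57683 listed features. They were chosen with their values in these hearts already known. Their levels and differences are therefore given as a description, without a test. The hearts fall into 5 groups. The embryonic group was the whole hearts of 7 embryos at stage E13.5, of unknown sex in the labels. The titles of all 7 give E13.5, which was used, while the age field of their labels rises in steps from E13.5 to E13.11. Ventricular apexes, the tip of the heart below the atria, came from all the adults. Of these, 6 were unoperated at 6 weeks of age, 6 were unoperated at 16 weeks and 4 were sham-operated and 12 weeks old, all labelled male. The last group was 4 hearts, also at 12 weeks, taken after 4 weeks of transverse aortic constriction (TAC), an operation that narrows the aorta so that the left ventricle pumps against a higher pressure. Of the TAC hearts, 3 were labelled male and 1 female. No group carries an engineered allele in the labels.

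Macroautophagy encloses worn proteins and organelles in a double membrane, the autophagosome, which then fuses with the lysosome, where acid hydrolases break the cargo down. Cardiac myocytes, which are long lived and packed with mitochondria, depend on this turnover, and losing some of its parts causes heart disease: a lack of the hydrolase encoded by Gaa causes Pompe disease and a lack of Lamp2 causes Danon disease. Becn1 encodes Beclin 1, a subunit of the lipid kinase complex that starts the autophagosome. Gabarap, Gabarapl1, Gabarapl2, Map1lc3a and Map1lc3b encode the ATG8 family, small ubiquitin-like proteins that are joined to a lipid of the growing membrane. Sqstm1 encodes p62 and Bnip3 a protein of the outer mitochondrial membrane, both receptors that hold cargo to the ATG8 proteins.

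The ATG8 genes resemble each other, so the sequences that set them apart are shown first. ATG4 proteases cut each ATG8 protein after a glycine near its end, which exposes the glycine for lipid attachment. The last 48 coding bases of each gene, with the stop codon, are given 5′ to 3′ from the mouse GENCODE M21 transcripts (build GRCm38), with the codon of that glycine in capitals.
Gabarap: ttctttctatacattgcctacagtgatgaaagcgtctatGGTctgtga
Gabarapl1: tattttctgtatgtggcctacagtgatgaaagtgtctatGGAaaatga
Gabarapl2: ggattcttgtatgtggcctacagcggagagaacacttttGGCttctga
Map1lc3a: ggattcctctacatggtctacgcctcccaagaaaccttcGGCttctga
Map1lc3b: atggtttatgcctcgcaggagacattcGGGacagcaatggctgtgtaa
A single codon lies between the glycine and the stop in 4 of the genes, and 5 codons do in Map1lc3b. Coding sequences were most alike for Map1lc3a and Map1lc3b (76.0% identical over 366 aligned bases) and for Gabarap and Gabarapl1 (74.9% over 354). The longest run of bases shared exactly by any pair of these transcripts was 17, between Gabarap and Gabarapl1. The read length is not given in the sources used here, so how many reads could match more than 1 of these genes, or pseudogene copies of them, was not tested.

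The authors counted reads on an annotation of the mm9 build that also holds many noncoding transcripts, and how much of a gene was its own differed between the 10. Gene coordinates are those of mm9. Gabarap (ENSMUSG00000018567, chr11:69804645-69808453, plus strand), Map1lc3b (ENSMUSG00000031812, chr8:124114377-124121946, plus), Bnip3 (ENSMUSG00000078566, chr7:146082519-146101202, minus) and Gaa (ENSMUSG00000025579, chr11:119129201-119146768, plus) share no exonic base with another listed feature. Gabarapl2 (ENSMUSG00000031950, chr8:114464603-114477512, plus) shares 1 base and Gabarapl1 (ENSMUSG00000030161, chr6:129483218-129492349, plus) keeps 97.3% of its 1765 exonic bases to itself. Lamp2 (ENSMUSG00000016534, chrX:35754534-35809631, minus) keeps 72.0%, Map1lc3a (ENSMUSG00000027602, chr2:155102033-155103809, plus) 60.5% and Sqstm1 (ENSMUSG00000015837, chr11:50012868-50024329, minus) 49.7%. The shared bases of Map1lc3a lie opposite a noncoding feature on the other strand, and those of Sqstm1 opposite features that include the coding gene 3010026O09Rik. Because the libraries keep no strand, reads from such a pair cannot be told apart there. Becn1 (ENSMUSG00000035086, chr11:101147266-101163600, minus) has none of its 1486 coding bases to itself.

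Becn1 was in effect not measured. Its count was 10 to 26 in the embryonic libraries, 0 or 1 at 6 weeks, 0 to 4 at 16 weeks, 2 or 3 in sham hearts and 4 to 8 in TAC hearts. In these files the 6532 features without an exonic base of their own hold no count at all. The level of Becn1 therefore rests on exonic bases outside its coding sequence and gives no account of Beclin 1 mRNA. It did not pass the expression filter in any comparison, and the differences below are those of the other 9 genes, all of which passed in all 3 comparisons.

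Depth went with the groups. Total counts per library were 7543375 to 12646039 at E13.5, 2092270 to 2682955 at 6 weeks, 2164604 to 2642307 at 16 weeks, 7958592 to 11561952 in sham hearts and 10411417 to 11846819 in TAC hearts, and the labels give the unoperated adults a base quality encoding of their own (phred64, the others phred33). Each library is 1 labelled heart, and no label says which animals shared a litter, cage or day. Y-linked counts went against the sex label in 8 libraries: replicates 1 and 6 at both 6 and 16 weeks, sham replicates 2 and 3, TAC replicate 3 and the TAC heart labelled female. Groups were kept as labelled. In 10 cardiomyocyte markers the summed level was 23481 to 30853 CPM (counts scaled to library size) at E13.5 and 117967 to 189192 CPM over all adult groups. Macrophage markers (11 genes) summed to 159 to 213 CPM at E13.5 and 373 to 625 CPM in the unoperated and sham adults. Erythroid markers (7 genes) summed to 10293 to 40060 CPM at E13.5 and at most 85.7 CPM in adults. In bulk RNA, fewer cells of a type and less RNA per cell cannot be told apart.

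Between embryonic and unoperated adult hearts, Map1lc3a was the member that stood furthest apart. It encodes LC3A, an ATG8 protein of the LC3 branch. Levels below are CPM scaled with TMM factors, given as lowest, median and highest heart for groups of 6 or 7 and for every heart in groups of 4. Map1lc3a stood at 47.6, 51.5 and 58.4 CPM at E13.5, at 397, 424 and 509 CPM at 6 weeks and at 404, 466 and 501 CPM at 16 weeks. Sham hearts held 515, 524, 497 and 518 CPM and TAC hearts 442, 478, 454 and 439 CPM. Every adult heart lay above every embryonic heart, and the unoperated adults averaged 8.62-fold more than the embryos (log2 difference -3.11 ± 0.07, SE, E13.5 minus adults, 7 against 12 hearts). Map1lc3b, which encodes LC3B, the form most often used to follow autophagosomes, ran from 48.9 to 55.5 CPM at E13.5 and from 133 to 194 CPM over all adult hearts. Its adult mean was 3.23-fold that of the embryos (-1.69 ± 0.06).

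**Figure D1:**
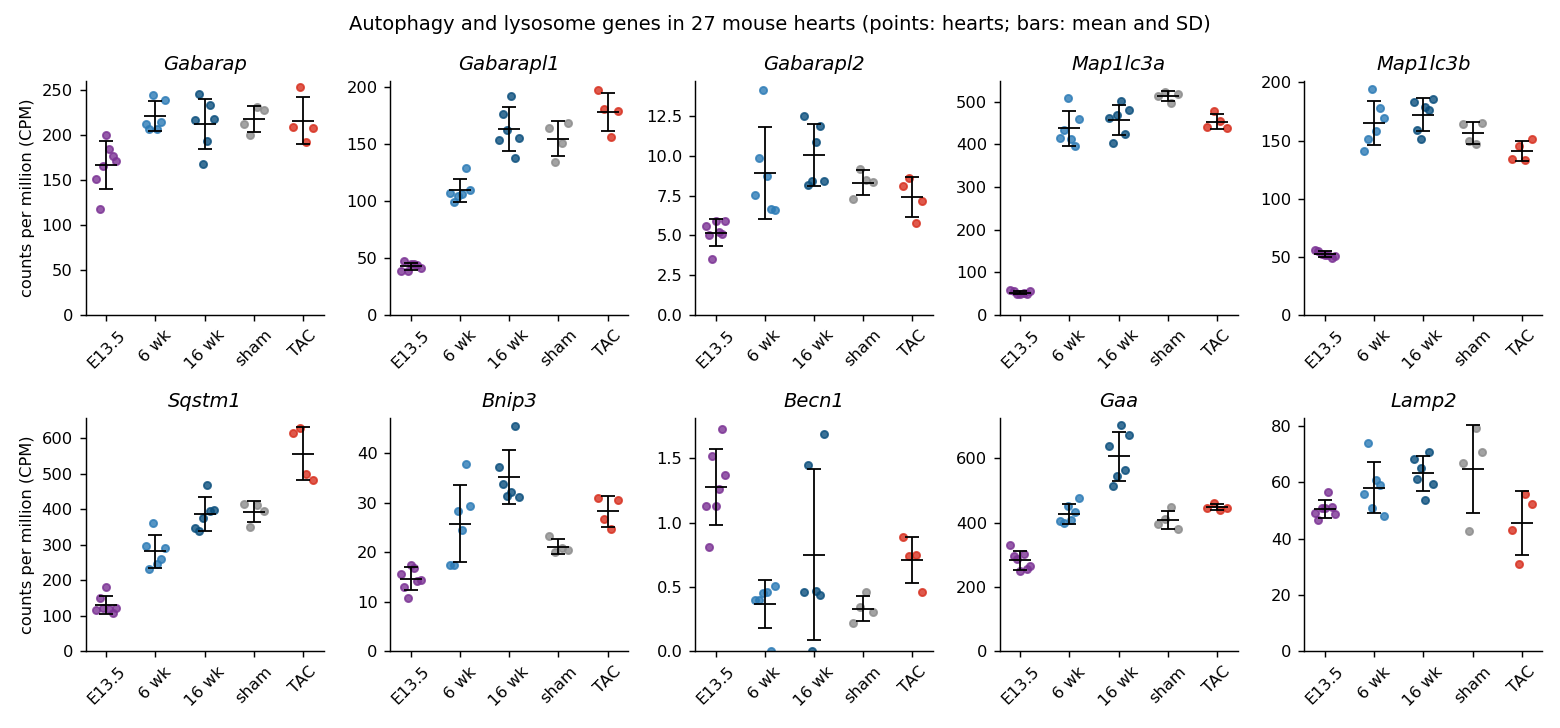
CPM (vertical axis, from 0, with a scale for each gene) of the 10 genes in each of the 27 hearts, by group; points are hearts, and bars give the mean and SD. Map1lc3a, Map1lc3b and Gabarapl1 have embryonic hearts far below all adult hearts, Gabarap and Lamp2 overlap, and Becn1 stays below 2 CPM.

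The GABARAP branch was less uniform. Gabarapl1, the closest relative of Gabarap, stood at 38.1, 43.2 and 46.9 CPM at E13.5, 99.0, 107 and 129 CPM at 6 weeks and 137, 159 and 192 CPM at 16 weeks. Its adult mean was 3.15-fold the embryonic mean (log2 difference -1.66 ± 0.07), with no overlap. Gabarap itself, the founding member of the branch, stood at 117, 171 and 200 CPM at E13.5, 207, 213 and 244 CPM at 6 weeks and 167, 218 and 245 CPM at 16 weeks. Embryonic and adult hearts overlapped for Gabarap, and the difference was 1.3-fold (-0.38 ± 0.08). Gabarapl2, known as GATE-16, was low everywhere, at 3.50 to 5.92 CPM at E13.5 and 6.58 to 14.2 CPM in the unoperated adults (-0.87 ± 0.15). At 6 and 16 weeks its values rest on 13 to 31 counts per library, so counting error is a large part of their spread.

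Because the members of the family differed by different amounts, its make-up was not the same in embryonic whole hearts and adult apexes. To compare genes, CPM was divided by the kilobases of exon that each gene has to itself. The sum over the 5 ATG8 genes was 220 ± 10.8 CPM per kb (SD, n = 7) at E13.5, 896 ± 71.6 (n = 6) at 6 weeks, 955 ± 50.6 (n = 6) at 16 weeks, 1021 ± 21.1 (n = 4) in sham hearts and 940 ± 40.7 (n = 4) in TAC hearts. Gabarap made up 40.7% ± 5.08 of the embryonic sum and Map1lc3a 33.1% ± 3.54. In the adult groups, mean shares were 66.9% to 70.3% for Map1lc3a and 11.6% to 13.3% for Gabarap. The lowest adult heart had a Map1lc3a share of 62.9% and the highest embryonic heart one of 38.3%, so the groups did not overlap. Map1lc3b kept a share between 8.47% and 15.9% over all hearts, and Gabarapl2 one of at most 1.13%. Map1lc3a has few exonic bases to itself, so its share depends on the length used. Per kb of all exonic bases, a setting added after the data were seen, Map1lc3a made up 23.1% ± 2.86 at E13.5 and 55.3% to 59.1% in the adult groups, and Gabarap 47.0% ± 5.16 and 16.0% to 18.3%.

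**Figure D2:**
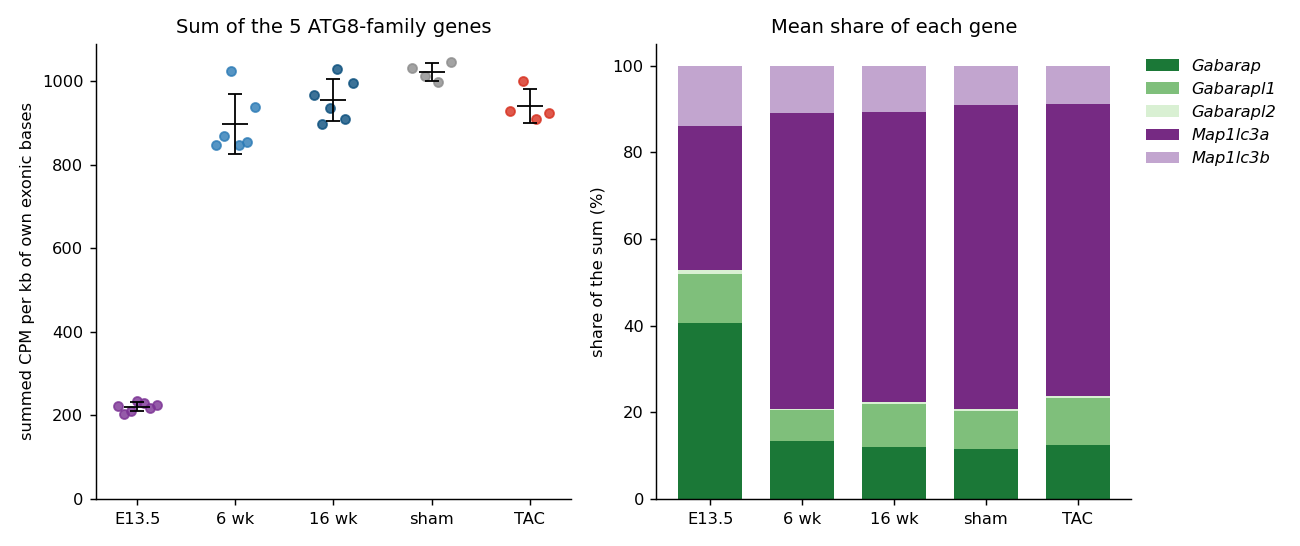
Left, summed level of the 5 ATG8-family genes in CPM per kb of exonic bases not shared with other features, each point a heart, with mean and SD; right, the mean share of each gene in that sum, in percent, by group. Embryonic hearts sum to 203 to 234 CPM per kb with Gabarap as the leading mean share (Map1lc3a led in replicate 2), and adult hearts to 845 to 1046 with Map1lc3a as the leading share.

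The cargo receptors and the lysosomal members were lower in embryos as well. Sqstm1, the p62 receptor for ubiquitin-tagged cargo, stood at 109, 122 and 181 CPM at E13.5 and at 232 to 469 CPM in the unoperated adults, a 2.51-fold difference without overlap (-1.33 ± 0.10). Bnip3, a mitophagy receptor, stood at 10.7, 14.5 and 17.5 CPM at E13.5 and at 17.4, 26.4 and 37.8 CPM at 6 weeks. The highest embryonic heart reached the lowest adult hearts, 2 of the 6-week hearts at 17.4 CPM (-1.04 ± 0.12). Both receptors thus sat lowest in the embryo, with Bnip3 near its lower adult values. Gaa, the lysosomal acid alpha-glucosidase that breaks glycogen down, stood at 249, 287 and 331 CPM at E13.5 against 398 to 704 CPM in the unoperated adults (-0.85 ± 0.07). Lamp2, a lysosomal membrane protein needed for fusion with autophagosomes, overlapped between the ages, at 46.5, 50.7 and 56.6 CPM at E13.5 and 48.1 to 73.7 CPM in the unoperated adults (-0.27 ± 0.07).

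In this comparison 9 of the 9 members tested were called lower at E13.5 and 0 were called higher, where 39.7% of the 12766 features tested were called lower and 44.1% higher (edgeR's quasi-likelihood test, Benjamini-Hochberg adjusted p under 0.05). The members were chosen on these values, so nothing is read from that count. The 10 cardiomyocyte markers also fell, all 10 of them, with a median log2 difference of -2.52, and the part of cell make-up or of whole heart against apex in the members' differences was not tested. Against the 4 sham hearts, whose depth and quality encoding match the embryos', the difference was -3.40 ± 0.06 for Map1lc3a, -1.96 ± 0.07 for Gabarapl1, -1.67 ± 0.12 for Sqstm1, -0.63 ± 0.11 for Bnip3 and -0.45 ± 0.11 for Lamp2. All 9 members kept their direction with that reference. The Lamp2 difference depended on the processing: it was -0.15 ± 0.07 with upper-quartile scaling and -0.09 ± 0.08, about its error, with no filter on low counts. Bnip3 was thus nearer to the embryonic level in sham than in unoperated hearts (-0.63 against -1.04), and Lamp2 further from it (-0.45 against -0.27).

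Other genes of the pathway were taken from 6 lists of 162 genes found in the table, of which 156 were tested here. Of these, 90 fell and 33 rose at E13.5 relative to the unoperated adults, with a median log2 difference of -0.34, against 0.07 over all features tested. Core autophagy machinery held 19 that fell and 1 that rose among 31 tested, with a median of -0.37. Wipi1, which binds the lipid made by the Beclin 1 complex, fell from 268 ± 28.8 CPM in adults to 69.8 ± 4.07 at E13.5 (log2 difference -1.94 ± 0.06, adjusted p = 4.45e-23 by edgeR's quasi-likelihood test). Atg13, a subunit of the ULK1 starting complex, fell by 1.62 ± 0.07 on the log2 scale, Atg4d, one of the proteases that process ATG8, by 1.76 ± 0.10, and Atg10, an enzyme of the ATG12 conjugation step, by 1.87 ± 0.18. Atg4b, the protease that processes most ATG8 proteins, was the one that rose (0.29 ± 0.07), with groups that overlapped.

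Among the other autophagy receptors, 12 of 17 fell and 4 rose (median -0.60). Pink1, which encodes the kinase that marks damaged mitochondria, fell from 1163 ± 135 CPM in adults to 79.9 ± 8.02 at E13.5 (-3.86 ± 0.08). Retreg1, a receptor for the endoplasmic reticulum, fell by 2.63 ± 0.10 and Optn, another ubiquitin-binding receptor, by 2.39 ± 0.11. The 4 that rose included Bnip3l, known as NIX, the paralog of Bnip3 that clears mitochondria from maturing red cells, at 42.6 ± 7.69 CPM against 13.6 ± 2.35 (1.64 ± 0.11). Stbd1, a receptor for glycogen, rose by 2.14 ± 0.13. The embryonic hearts also carried erythroid markers, 5 of 5 tested of which rose, and their part in the level of Bnip3l was not tested.

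Lysosomal genes were mixed. Of 42 hydrolases and activators tested, 20 fell and 12 rose (median -0.16). Smpd1, acid sphingomyelinase, fell by 2.60 ± 0.06, Psap, the precursor of the saposins, by 2.22 ± 0.06, Ctsd, the protease cathepsin D, by 1.94 ± 0.05 and Ids, an enzyme of heparan and dermatan sulfate breakdown, by 1.46 ± 0.09. Galns, a sulfatase, rose by 1.77 ± 0.09, Gusb, beta-glucuronidase, by 1.02 ± 0.07, and Manba, beta-mannosidase, by 1.01 ± 0.15. Lysosomal membrane proteins fell in 12 of 18 and rose in 3 (median -0.62), with Abca2 at -2.02 ± 0.07, Scarb2, the carrier of beta-glucocerebrosidase, at -1.71 ± 0.09 and Lamp1, the abundant relative of Lamp2, at -0.95 ± 0.05. The proton pump that acidifies the lysosome had 10 subunits of 18 that fell and 5 that rose (median -0.40). Regulators fell in 17 of 30 and rose in 8 (median -0.31). Tfeb, a transcription factor of lysosomal genes, fell by 1.03 ± 0.10 and Foxo3, a transcription factor of muscle autophagy genes, by 1.24 ± 0.13, while Tfe3, a relative of Tfeb, rose by 0.50 ± 0.08 and Hif1a, the hypoxia factor, by 1.44 ± 0.09.

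**Figure D3:**
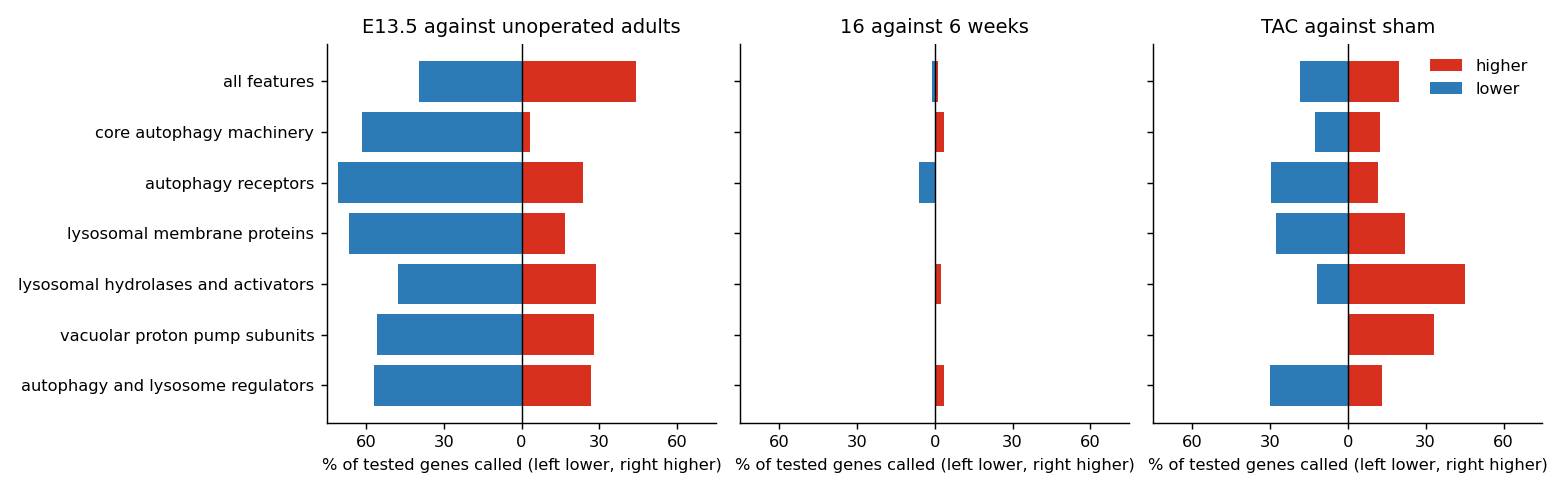
Percent of the tested genes of each list called lower (left of 0, blue) or higher (right of 0, red) in the 3 comparisons, with all features on top for reference. At E13.5 more genes of each list were called lower than higher, the age comparison has few calls, and in TAC hearts the hydrolases (19 higher, 5 lower) and proton pump subunits (6 higher, 0 lower) lean to the right.

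Between unoperated hearts at 16 and at 6 weeks, Gabarapl1, Gaa and Sqstm1 were higher at 16 weeks. Bnip3 differed by as much as Sqstm1 but with a larger error, and the other 5 members differed little. Gabarapl1 did not overlap between the ages: the highest 6-week heart stood at 129 CPM and the lowest 16-week heart at 137 CPM (log2 difference 0.56 ± 0.09, 16 minus 6 weeks, 6 against 6 hearts). Gaa did not overlap either, at 398, 420 and 477 CPM against 514, 602 and 704 CPM (0.48 ± 0.08). Sqstm1 stood at 232, 275 and 360 CPM against 337, 384 and 469 CPM, and a 6-week heart reached into the older range (0.44 ± 0.09). The values for Bnip3 were 17.4, 26.4 and 37.8 CPM against 31.2, 32.9 and 45.4 CPM (0.44 ± 0.17), with overlap. Gabarap (-0.07 ± 0.09), Gabarapl2 (0.16 ± 0.21), Map1lc3a and Map1lc3b (0.05 ± 0.07 and 0.05 ± 0.08) and Lamp2 (0.10 ± 0.11) differed by no more than their error.

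Here 3 of the 9 members tested were called higher and 0 lower, where 1.32% of the 10394 features tested were called higher and 1.19% lower. Nothing is read from that count, for the same reason as above. The groups overlapped in the summed level of the 10 cardiomyocyte markers, at 120759 to 137432 CPM at 6 weeks and 117967 to 144325 CPM at 16 weeks. Fibroblast markers summed to 1484 to 2572 CPM at 6 weeks and 1379 to 1659 CPM at 16 weeks, with 3 of 10 that fell and 0 that rose (median log2 difference -0.42), and their part in the members' differences was not tested. Of 150 other pathway genes tested, 3 rose, 1 fell and 146 were not called, with a median log2 difference of 0.05, against -0.01 over all features. Ctsd rose from 1567 ± 88.8 to 1929 ± 138 CPM (0.28 ± 0.06, adjusted p = 0.0144 by edgeR's quasi-likelihood test), Atg13 from 107 ± 12.7 to 137 ± 17.5 CPM (0.34 ± 0.09) and Akt1s1, an inhibitor within the mTOR complex, from 66.9 ± 16.0 to 93.1 ± 8.78 CPM (0.46 ± 0.12). Atg13 and Akt1s1 only just passed edgeR's quasi-likelihood test (adjusted p = 0.0495 and 0.0472), and their groups overlapped. Stbd1 fell from 15.5 ± 2.83 to 8.18 ± 3.68 CPM (-0.92 ± 0.23, adjusted p = 0.0303 by edgeR's quasi-likelihood test), also with groups that overlapped. Without the 4 libraries whose Y-linked counts go against their label, 0 of these genes rose and 1 fell. Lamp1 (0.12 ± 0.06, adjusted p = 0.348), Foxo3 (0.20 ± 0.19, adjusted p = 0.662), Tfeb (-0.04 ± 0.13, adjusted p = 0.918) and Bnip3l (-0.09 ± 0.17, adjusted p = 0.845) did not pass edgeR's quasi-likelihood test, and the last 3 changed sign in some settings.

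Under pressure overload the members went separate ways. Sqstm1 was higher in TAC hearts, with 613, 627, 500 and 482 CPM there and 415, 351, 411 and 395 CPM after sham operation, a 1.37-fold difference (log2 difference 0.46 ± 0.09, TAC minus sham, 4 against 4 hearts). Bnip3 was higher as well, with 31.0, 26.7, 24.7 and 30.6 CPM after TAC and 23.3, 20, 20.8 and 20.5 CPM after sham operation (0.38 ± 0.10). Neither gene overlapped between the groups. Both are cargo receptors, but of 17 other receptors tested 2 rose and 5 fell (median -0.09). Map1lc3a was lower in every TAC heart (439 to 478 CPM) than in every sham heart (497 to 524 CPM), a difference of 1.17-fold (-0.22 ± 0.06). Map1lc3b differed by about as much, at 134, 145, 133 and 151 CPM against 164, 150, 147 and 165 CPM, with 1 TAC heart inside the sham range (-0.20 ± 0.07). Gabarap (-0.06 ± 0.08), Gabarapl1 (0.16 ± 0.08), Gabarapl2 (-0.20 ± 0.16) and Gaa (0.09 ± 0.07) overlapped between sham and TAC hearts.

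Lamp2 varied more between hearts than any other member tested in this pair of groups. Sham hearts stood at 66.6, 42.8, 79.2 and 70.5 CPM and TAC hearts at 42.9, 30.9, 55.9 and 52.3 CPM, with a coefficient of variation of 24.0% and 24.6%, against 6.23% among the embryos. A single sham heart, replicate 2, lay inside the TAC range, and the difference was -0.55 ± 0.25. Lamp2 is X-linked. Without the 4 sham and TAC libraries whose Y-linked counts go against their label, the difference was -0.94 ± 0.13 with 2 hearts per group. Besides those 2 sham hearts, this left out the 2 highest TAC hearts (55.9 and 52.3 CPM).

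**Figure D4:**
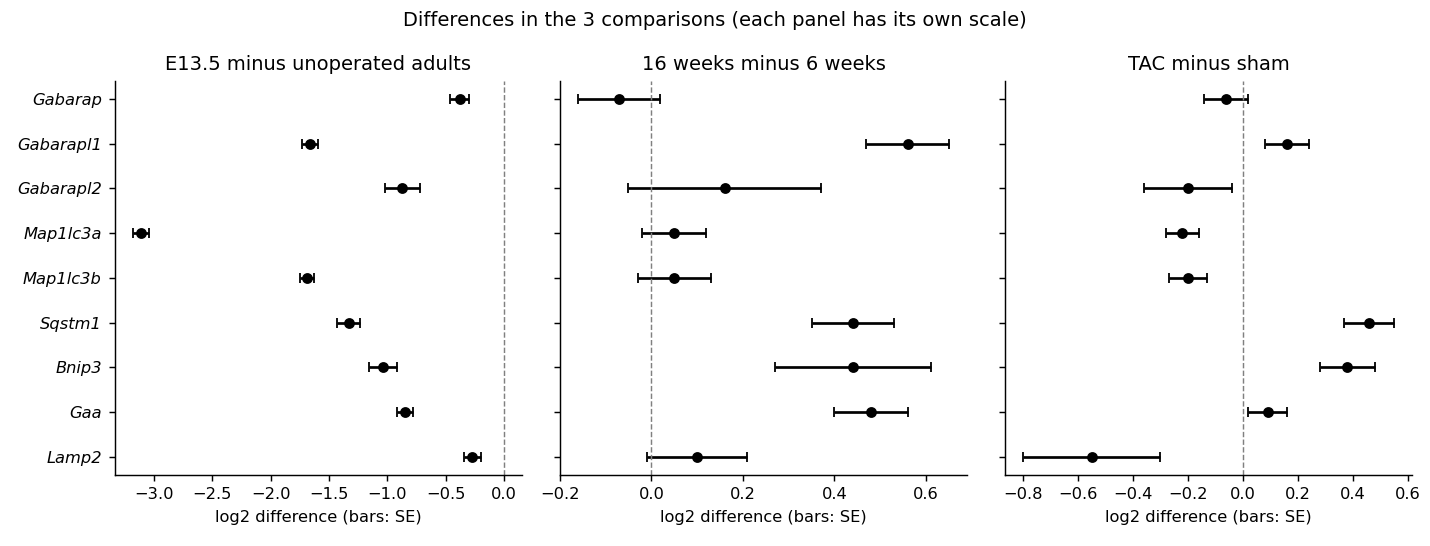
Log2 difference of the 9 members that passed the filter in each comparison, with standard errors as bars and a dashed line at 0; each panel has its own horizontal scale. All 9 lie left of 0 for E13.5 minus unoperated adults, from -3.11 (Map1lc3a) to -0.27 (Lamp2), while TAC minus sham ranges from -0.55 (Lamp2) to 0.46 (Sqstm1).

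Of the 9 members tested, 2 were called higher and 2 lower in TAC hearts, where 19.6% of the 14555 features tested were called higher and 18.4% lower, and nothing is read from the members' count. The higher ones were Sqstm1 and Bnip3 and the lower ones Map1lc3a and Map1lc3b. Cardiomyocyte markers summed to 160912 to 189192 CPM in sham and 144164 to 171600 CPM in TAC hearts, with 2 of 10 that rose and 3 that fell. Fibroblast markers (10 genes) summed to 1266 to 1407 CPM in sham and 2620 to 5152 CPM in TAC hearts, with 7 that rose and 0 that fell. Macrophage markers summed to 559 to 625 CPM and 766 to 1092 CPM, with 6 of 11 that rose and 0 that fell. The part of these cell types in the members' differences was not tested.

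Of 157 other pathway genes tested in TAC hearts, 39 rose and 28 fell, with a median log2 difference of 0.06, against 0.00 over all features. Over the 11617 coding genes tested the median was 0.06 as well, with 2735 called higher and 1650 lower. The hydrolases and activators held 19 of the pathway genes that rose and 5 that fell, among 42 tested (median 0.16). Ctsz, the carboxypeptidase cathepsin Z, rose from 49.5 ± 3.33 to 105 ± 10.6 CPM (1.04 ± 0.08, adjusted p = 3.17e-07 by edgeR's quasi-likelihood test). Ctss and Ctsk, the proteases cathepsins S and K, both rose by 0.77 (± 0.14 and ± 0.16). Ctsh fell by 0.72 ± 0.13, Ids by 0.57 ± 0.08 and Ctsf by 0.43 ± 0.08. Macrophage and fibroblast markers rose between the same groups, as given above, and the part of these cell types in the hydrolase differences was not tested. Of 18 proton pump subunits tested, 6 rose and 0 fell (median 0.18), led by Atp6v1h (0.77 ± 0.11), Tcirg1 (0.51 ± 0.11) and Atp6v1f (0.42 ± 0.12).

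The other lists were split in TAC hearts. Among receptors, 2 rose and 5 fell of 17 (median -0.09): Fkbp8, a mitochondrial receptor, rose by 0.27 ± 0.07, while Bcl2l13, another mitochondrial receptor, fell by 0.63 ± 0.16, Bnip3l by 0.45 ± 0.12, Pink1 by 0.36 ± 0.06 and Nbr1, a relative of p62, by 0.21 ± 0.06. Core machinery had 4 that rose and 4 that fell of 32 (median 0.01), with Atg101 (0.60 ± 0.12) and Wipi1 (0.40 ± 0.07) higher and the kinases Ulk1 (-0.26 ± 0.09) and Ulk2 (-0.34 ± 0.08) lower. Membrane proteins had 4 that rose and 5 that fell of 18 (median -0.09). Cd63, a tetraspanin, rose by 0.66 ± 0.09 and Lamp1 by 0.18 ± 0.07, and Npc1, the lysosomal cholesterol exporter, fell by 0.88 ± 0.13. Regulators had 4 that rose and 9 that fell of 30 (median 0.03). Keap1, a binding partner of p62, rose by 0.45 ± 0.07 and Bcl2, which binds Beclin 1, by 0.84 ± 0.17, while Foxo3 fell by 0.54 ± 0.10, Mitf, a relative of Tfeb, by 0.50 ± 0.09 and Deptor, an mTOR inhibitor, by 0.64 ± 0.16. Tfeb did not pass edgeR's quasi-likelihood test (0.16 ± 0.09, adjusted p = 0.173).

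Ratios taken within each library compare a pair of genes without the scaling between libraries, and are given per kb of exon that each gene has to itself. The pairs are paralogs, except for Sqstm1 and Gaa. Bnip3 to Bnip3l was 0.594 ± 0.106 at E13.5, 3.29 ± 1.36 at 6 weeks, 4.61 ± 1.01 at 16 weeks, 1.61 ± 0.269 in sham hearts and 2.83 ± 0.207 in TAC hearts (SD, n as above). Per kb, every embryonic heart had more Bnip3l than Bnip3 and every adult heart more Bnip3 than Bnip3l. For sham hearts this depends on the lengths used (2265 and 3859 bases). In CPM not divided by length, Bnip3 and Bnip3l averaged 21.1 and 22.7 in sham hearts and 28.3 and 17 in TAC hearts. The ratio in TAC hearts (2.59 to 3.08) lay above that in sham hearts (1.37 to 1.98). Map1lc3a to Map1lc3b was 2.37 ± 0.144 at E13.5 and averaged 6.34 to 7.82 in the adult groups, and sham and TAC hearts overlapped at 7.46 to 8.29 and 6.92 to 8.12. Gabarapl1 to Gabarap was 0.282 ± 0.0674 at E13.5, 0.534 ± 0.0639 at 6 weeks and 0.839 ± 0.175 at 16 weeks. Lamp2 to Lamp1 was 0.0520 ± 0.00244 at E13.5, between 0.0321 and 0.0336 on average in the unoperated and sham adults, and 0.0206 ± 0.00626 in TAC hearts, which overlapped sham hearts. Sqstm1 to Gaa was 1.35 ± 0.355 at E13.5 and 1.88 ± 0.253 and 1.83 ± 0.175 at 6 and 16 weeks, where both genes were higher at the older age. It was 2.77 ± 0.273 in sham and 3.54 ± 0.424 in TAC hearts.

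**Figure D5:**
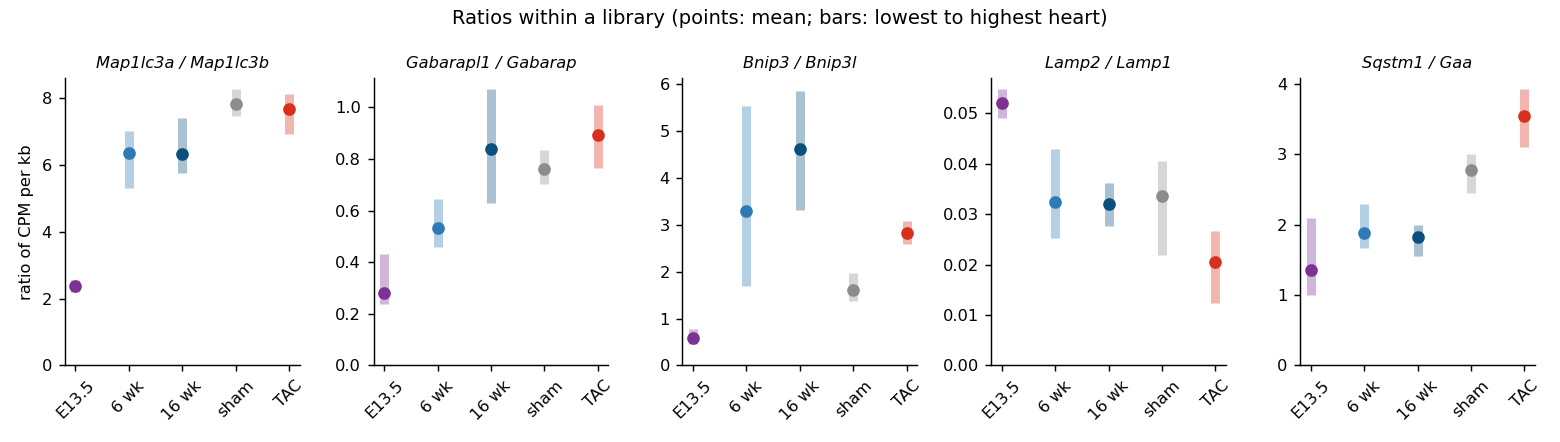
Ratio of CPM per kb of own exonic bases within a library for 5 gene pairs, by group; points are group means and shaded bars run from the lowest to the highest heart, on axes that start at 0. Per kb, Bnip3 to Bnip3l is below 1 in all embryonic hearts (highest 0.777) and above 1 in all adult hearts (lowest 1.37). Where a ratio lies relative to 1 depends on the lengths used.

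Ordered by mean level over the 5 groups, most members placed the embryos last, but the top group differed. Sqstm1 was highest in TAC hearts (482 to 627 CPM), followed by sham and 16-week hearts, which overlapped, then by 6-week hearts, the highest of which (360 CPM) reached into both, and by the embryos. Gabarapl1 was highest in TAC hearts too, overlapping 16-week and sham hearts. Gaa was highest at 16 weeks (514 to 704 CPM), above every heart of any other group, while TAC, 6-week and sham hearts overlapped between 380 and 477 CPM. Bnip3 was highest at 16 weeks, where the lowest heart (31.2 CPM) stood above the highest TAC heart (31.0 CPM), and TAC, 6-week and sham hearts followed. Map1lc3a was highest in sham hearts, which overlapped 6-week and 16-week hearts. Map1lc3b and Gabarapl2 were highest at 16 weeks, and overlapped between the unoperated ages and sham hearts. Gabarap differed least, with adult group means of 212 to 220 CPM that overlapped throughout. Lamp2 was lowest in TAC hearts rather than in embryos, with overlap. Sham hearts differ from unoperated hearts in age, operation, depth and quality encoding, which cannot be told apart.

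The coding genes whose 5 group means followed a member most closely were ranked by the root mean square difference of centred log2 CPM, among 10865 genes. For Map1lc3a they were Pygm (0.084), Ogdh (0.092) and Epas1 (0.095). For Map1lc3b they were Tspan7 (0.022), Cnst (0.025) and Opa1 (0.028), and for Gabarapl1 Kcnn1 (0.069), Clip1 (0.076) and Iscu (0.097). Gabarap was matched most closely by Crtc3 (0.013), Ube3c (0.019) and Tmem49 (0.023), and Gabarapl2 by Ctnnal1 (0.029), Dlg1 (0.034) and Rab7 (0.046). Sqstm1 was nearest to Il17rc (0.056), Gaa to Wdr41 (0.050) and Lamp2 to Qser1 (0.050), and Man1c1 (0.080) was among the 3 nearest to Bnip3. These distances rest on 5 points each and describe only the profile over groups.

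Promoter sequence was examined because the transcription factors TFEB, TFE3 and MITF are known to bind the CLEAR element, a motif of lysosomal genes built on the E-box CACGTG. RefSeq windows of 300 bases (build GRCm38.p6) around the start site were given for 8 of the 10 members, not Map1lc3a or Becn1. CACGTG, which reads the same on both strands, was found in 2 of the 8, Gaa and Bnip3, and in 8.09% of 27025 genes and 20.3% of 133 other pathway genes with a window. Both matches are printed 5′ to 3′ on the strand of the gene within 60 bases, with the motif in capitals. That of Gaa lies at -140 to -135 from the start site (chr11:119267796-119267855, plus strand) and that of Bnip3 at -108 to -103 (chr7:138909582-138909641, minus strand).
Gaa: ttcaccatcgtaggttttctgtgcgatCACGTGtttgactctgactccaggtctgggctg
Bnip3: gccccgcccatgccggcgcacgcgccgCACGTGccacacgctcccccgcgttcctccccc
The longer form TCACGTGA was in 0 of the 8 members, in 1.12% of all genes and in 11 of the 133 other pathway genes. A FoxO motif, GTAAACA, was in 0 of the 8 on either strand, in 4.05% of all genes and in 0.752% of the other pathway genes. ACGTG, the core of the hypoxia response element, which is part of CACGTG, was found on either strand in 4 of the 8 (Bnip3, Gaa, Gabarap and Gabarapl2), in 21.8% of all genes and in 37.6% of the other pathway genes. These matches describe letters in the windows and were not tested against the levels.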

How the data were processed

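The 27 libraries were made from oligo(dT)-selected RNA and read from one end, with no record of strand, per the labels' protocols. Each deposited file gives a raw read count per gene or noncoding feature on mouse build mm9 (NCBIM37). The submitters' processing notes list Bowtie, TopHat 1.3.0, HTSeq, DESeq and edgeR without their roles. How HTSeq treated reads that match several features is not given in the sources used here.

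From these counts, each comparison was fitted on its own groups over all features with edgeR 4.0.16 in R 4.3.3 (expression filter with minimum count 10 and total 15, TMM scaling, quasi-likelihood test, robust dispersions), and features with a Benjamini-Hochberg adjusted p under 0.05 were called. The embryos were compared with the average of both unoperated ages. SE is the absolute log2 difference over the square root of F. P-values set the difference between groups against the spread of the hearts within groups. They do not separate stage from depth, quality encoding or whole heart against apex in the E13.5 comparison. Levels are CPM with TMM factors over all 27 libraries. The 10 members and the gene lists were chosen with earlier results of these data known. Of 163 listed pathway genes 162 were found (not Gm2a), and of 85 markers 84. Named pathway genes were up to 4 called genes per list and direction with mean CPM of at least 5, shown in part, and Bnip3l, Lamp1, Tfeb and Foxo3. The alternatives tried were scaling by RLE or upper quartile, DESeq2 1.42.0, other filters, a replicate block, all libraries in 1 fit, sham hearts as adult reference, libraries left out and, added after seeing the data, shares per all exonic bases. The fits were tested on simulated counts in which few features differed. Scaling where most features differ, as at E13.5, was not tested that way. Sequences were aligned with Biopython 1.88, and figures drawn with Python 3.11.15 and matplotlib 3.10.9. Some genes that met these rules are not reported here.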

Additional observations from a re-analysis of the deposited data

Results flagged for a closer look

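In 50 groups of member values (10 genes in 5 groups), 3 had a heart far from the others, where chance flags about 1 in 20 groups. Gabarapl1 stood at 129 CPM in replicate 5 at 6 weeks, against 99.0 to 109 CPM in the other 5 hearts of that age. Gabarapl2 stood at 3.50 CPM in replicate 3 of the embryos, against 5.05 to 5.92 CPM in the others. Becn1 had a level of 0 CPM in replicate 5 at 6 weeks, against 0.396 to 0.506 CPM in the others, which is 0 counts against 1.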

How the results depend on the processing

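All 9 members kept the direction of their E13.5 difference in every alternative run, though Lamp2 came to -0.09 with no filter, and so did Gabarapl1 (0.51 to 0.61), Gaa (0.44 to 0.53) and Sqstm1 (0.39 to 0.52) with age and Sqstm1 (0.40 to 0.57), Bnip3 (0.32 to 0.43), Map1lc3a (-0.26 to -0.17), Map1lc3b (-0.28 to -0.14) and Lamp2 (-0.94 to -0.39, the last without TAC replicate 2) in TAC. Gabarap and Gabarapl2 in TAC turned to 0.03 and 0.05 without the libraries that go against their sex label. In the E13.5 comparison, Ncoa4 and Wdfy3, called higher, turned to -0.09 and -0.14 with sham hearts as reference. Upper-quartile scaling moved the median of all features by 0.12 there, no filter by 0.18 and the sham reference by -0.11.

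Age calls among other pathway genes (3 higher, 1 lower) were few and moved: higher 1 and lower 2 with upper-quartile scaling, 5 higher with DESeq2, 3 lower with no filter, 5 higher and 0 lower with all libraries in 1 fit, and 0 higher without the libraries against their sex label. Leaving out 1 library gave 1 to 3 higher and 0 to 2 lower: 1 higher without 6-week replicate 2 or 5 or 16-week replicate 1, 2 or 4, and 0 lower without 6-week replicate 1, 4 or 5 or 16-week replicate 2, 3 or 4, and 2 lower without 6-week replicate 6. Without the libraries against their label, Bnip3l turned to 0.09, Foxo3 to -0.01 and Tfeb to 0.04. Tfeb also turned to 0.00 without 6-week replicate 3 and to 0.09 without replicate 6. In TAC, 15 genes instead of 28 were lower with all libraries in 1 fit.

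Over the features that passed the expression filter, same-numbered hearts did not deviate together (correlations -0.08 to 0.07). Lamp2 in TAC went otherwise: its difference was -0.58 ± 0.09 with the replicate number as a block, against -0.55 ± 0.25 without. Replicates 1 and 6 had Y-linked counts of 0 or 1 at both 6 and 16 weeks. Whether the numbers mark a shared litter, cage or day was not tested. With the replicate number as a block, 20 pathway genes were higher and 17 lower in TAC, against 39 and 28, 4 and 1 with age, and 33 and 88 at E13.5. The cause of these shifts was not tested. Depth limits Gabarapl2 most, and the unoperated adults more than the rest, while Becn1 is limited by bases shared with other features.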
